A study of Mus musculus with 4 samples.

Results

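*Malat1*, *Neat1*, *Meg3*, *Rian*, *Mirg*, *Miat*, *Snhg11* and *Kcnq1ot1* are long RNAs that are mostly kept in the nucleus, and several of them come from imprinted regions of the genome, where the copy inherited from one parent is silenced. These 8 genes were chosen by name from the 23420 gene symbols counted in each library. All 8 had enough counts to be among the 16232 genes tested. They were compared between mouse prefrontal cortex (PFC) injected with an adeno-associated virus (AAV) carrying a short hairpin RNA (shRNA) against *Ash1L*, which encodes a histone methyltransferase, and PFC injected with a control virus. The question was how these RNAs differ after knockdown of *Ash1L* in PFC.

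RNA-seq was made from total RNA after removal of ribosomal RNA, in 2 control and 2 *Ash1L* shRNA samples. All samples were bulk PFC lysate of C57BL6/J mice with no other allele or drug. The control treatment is GFP-AAV9 in the labels and AAV with a scrambled shRNA in the methods. The methods give injection at 5 weeks, a U6 promoter driving the shRNA, a GFP tag on the virus, punches of the GFP-positive tissue and tissue pooled from 3 mice for each sample. The series instead describes 3 *Ash1L* shRNA mice and 2 control mice at 6 to 8 weeks of age. A punch also holds cells that took up no virus. In bulk tissue, fewer cells of a type and less RNA per cell cannot be told apart, and this holds for every value below.

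Long nuclear RNAs of this kind act as RNA and not through a protein. *Neat1* is the scaffold of paraspeckles, *Malat1* gathers at nuclear speckles next to the splicing factors stored there, and *Miat* (also called Gomafu) forms its own spots in the nuclei of neurons. *Meg3*, *Rian* and *Mirg* are read from the maternal copy of the *Dlk1-Dio3* region and contain or flank many microRNA and small nucleolar RNA genes, whereas *Kcnq1ot1* is read from the paternal copy and silences neighbouring genes in cis.

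*Miat* was the only one of the 8 RNAs called in the comparison, and it was lower in both *Ash1L* shRNA samples. Its transcript is known for copies of the motif UACUAAC, a branch-point sequence of introns, to which splicing factor 1 binds. The longest annotated *Miat* transcript (Miat-205, 9163 bases) held 6 copies of TACTAAC on its own strand and 0 copies of the reverse complement, all 6 within 689 bases of exon 7 of 7. Among the 8 RNAs, *Kcnq1ot1* held 4 copies and 4 reverse complements in 93092 bases, *Neat1* held 1, and the longest transcripts of the other 5 held 0. Of 2632 long noncoding RNA genes with a transcript of at least 2000 bases, 8.40% held the motif at all, 2 (*Miat* among them) held at least 0.655 copies per kb, and *Miat* alone held 6. The 200 bases of exon 7 with the densest copies lie at chr5:112217319-112217518 on the minus strand (GRCm38, the mm10 build, GENCODE annotation), with the motif in capitals. They are shown because they set *Miat* apart from the other RNAs compared:

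Miat exon 7: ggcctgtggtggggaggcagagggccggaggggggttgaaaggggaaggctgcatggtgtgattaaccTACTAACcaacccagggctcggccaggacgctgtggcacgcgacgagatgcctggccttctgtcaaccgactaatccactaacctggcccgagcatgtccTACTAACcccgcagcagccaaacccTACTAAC

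The promoter of *Miat* was the richest in CpG of those available. RefSeq (GRCm38.p6) gave a window of 250 bases before to 50 bases after the start for 7 of the 8 genes. The *Miat* window held 25 CpG, a number reached by 18.4% of 32851 such windows, and *Snhg11* held 21. The first *Meg3* window held 13, *Malat1* and *Mirg* held 10, *Kcnq1ot1* held 9, and *Rian* held 0, against a median of 7 over all windows. RefSeq and GENCODE differ in where some of these genes start, so the *Mirg* window begins at a RefSeq start 5.22 kb inside the GENCODE gene, over *Mir668*, and the *Miat* window at one 447 bases inside it. The *Miat* window, chr5:112228899-112229198 on the minus strand, is printed with each CG in capitals because it belongs to the one RNA called:

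Miat promoter: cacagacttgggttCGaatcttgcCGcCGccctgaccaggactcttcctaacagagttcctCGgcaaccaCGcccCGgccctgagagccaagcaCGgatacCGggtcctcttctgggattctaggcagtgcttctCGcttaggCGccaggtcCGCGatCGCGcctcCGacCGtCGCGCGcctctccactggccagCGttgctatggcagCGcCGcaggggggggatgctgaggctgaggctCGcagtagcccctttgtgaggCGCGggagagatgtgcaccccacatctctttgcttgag

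The 8 RNAs took between 1.40% and 1.75% of each library, and the groups overlapped. The share was 1.56% in control 1 (95% Wilson interval 1.55 to 1.57) and 1.62% in control 2 (1.61 to 1.62). It was 1.40% in *Ash1L* shRNA 1 (1.40 to 1.41) and 1.75% in *Ash1L* shRNA 2 (1.75 to 1.76). The *Ash1L* shRNA samples were thus the lowest and the highest of the 4. These intervals cover counting error only, and the samples differed by far more. The other 7 RNAs without *Malat1* took 0.378% and 0.370% of the control libraries and 0.305% and 0.405% of the *Ash1L* shRNA libraries.

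Levels below are normalized counts (CPM, with library sizes corrected by the trimmed mean of M values), and 4 values in a row follow the order control 1, control 2, *Ash1L* shRNA 1, *Ash1L* shRNA 2. Levels were also divided by the merged length of all GENCODE exons of a gene, which may differ from the exons on which reads were counted. Per kb of exon, the mean level over all samples was 1744 CPM for *Malat1*, 86.1 for *Snhg11*, 77.0 for *Meg3*, 44.7 for *Rian* and 28.9 for *Miat*. It was 4.004 for *Kcnq1ot1*, 2.95 for *Mirg* and 1.93 for *Neat1*. *Malat1* was thus far above the rest, and the order of the last 2 was not fixed, since *Neat1* reached 2.60 CPM per kb in control 2 while *Mirg* stood at 2.49 there. *Snhg11* and *Meg3* were close to each other but kept their order in each sample, with *Meg3* at 80.7, 84.5, 62.5 and 80.4 CPM per kb and *Snhg11* at 87.1, 91.0, 68.4 and 97.8. Before division by length *Meg3* was the higher in every sample, so their order rests on the exon lengths used (18.1 kb for *Meg3* and 8.52 kb for *Snhg11*).

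**Figure D1:**
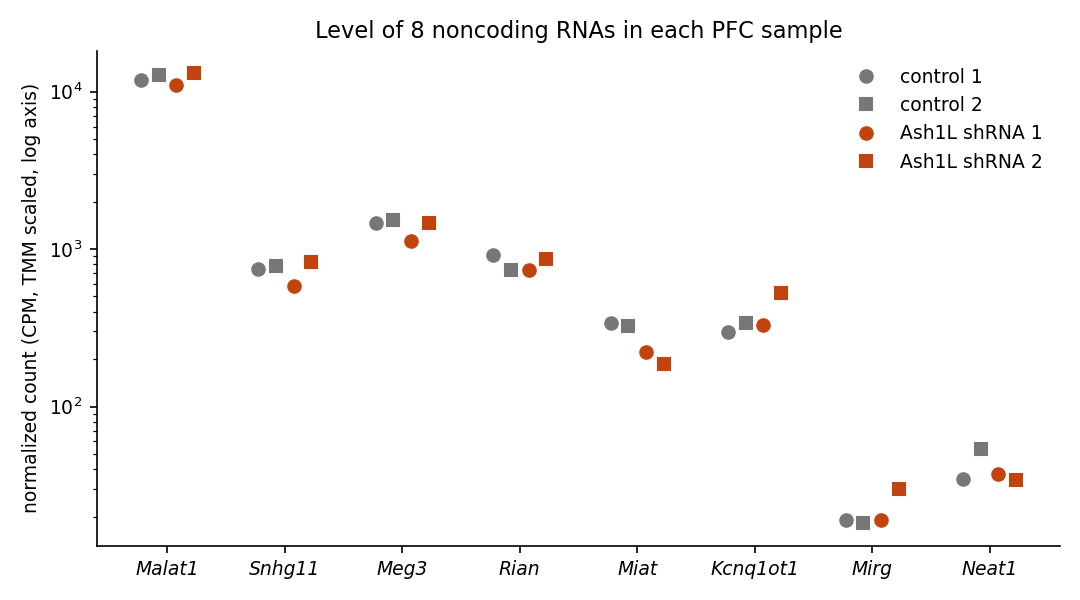
Normalized count (CPM, log axis) of each RNA in the 4 PFC samples, ordered by mean level per kb of exon. Grey symbols are the control samples and orange symbols the *Ash1L* shRNA samples, with 1 symbol a sample. *Miat* is the RNA with a clear gap between the groups, at 324 and 340 CPM in control and 186 and 223 CPM after *Ash1L* shRNA.

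Libraries held 14251190 to 35764874 counts. *Ash1l* itself stood at 245, 290, 216 and 138 CPM, lower in both *Ash1L* shRNA samples (log2 fold change -0.60, SE 0.22, Benjamini-Hochberg adjusted p = 0.275 from edgeR's quasi-likelihood test). Neuronal markers were present in every sample, with the summed level of 12 pan-neuronal genes at 9619, 9983, 8777 and 7598 CPM. That sum was below both controls in both *Ash1L* shRNA samples. The same held for the summed excitatory neuron markers (2586, 3062, 2373 and 1997 CPM) and interneuron markers (821, 742, 719 and 691 CPM). It also held for the summed astrocyte markers, at 5724 and 6030 CPM in control against 4587 and 3394 CPM after *Ash1L* shRNA. Control 1 held the least of the structured RNAs *Rn45s*, *Rmrp* and *Rpph1* (0.129%, 0.0417% and 0.0641% of the library), and *Ash1L* shRNA 1 held the most *Rn45s* (1.04%) and *Lars2* (0.553%), a gene whose reads can come from ribosomal RNA. With library sizes taken without these 4 RNAs, a setting added after seeing the data, the log2 fold changes of the 8 RNAs kept their sign and their call, with *Miat* at -0.69 and *Kcnq1ot1* at 0.44. The replicates were not repeat counts of 1 library, with a chi-square per degree of freedom of 14.8 between the controls and 42.3 between the *Ash1L* shRNA samples. The labels call them biological duplicates but the descriptions of the mice differ, so p-values measure only the spread between these samples.

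A gene was called DOWN or UP, by the study's own definition, at an unadjusted p under 0.05 with a fold of at least 1.2. By this rule 1 of the 8 RNAs, *Miat*, was DOWN, against a background of 8.28% of all genes tested, and 0 were UP, against 8.61%. With the p adjusted over all genes tested, 0 of the 8 passed 0.05, against 0.00616% of all genes. The fold change was below 0 for 6 of the 8 and above 0 for *Mirg* and *Kcnq1ot1*. The median log2 fold change was -0.07 over the 8 and -0.003 over all genes. For 2 of the 8, *Miat* and *Meg3*, both *Ash1L* shRNA samples lay below both controls, against 26.8% of all genes, and for 0 of the 8 both lay above, against 26.5%. The counts do not set the 8 RNAs apart from the background.

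*Miat* (ENSMUSG00000097767, chr5:112213228-112229395, minus strand, GRCm38) had raw counts of 4801, 11357, 6121 and 3852. This gave 340 and 324 CPM in the control samples and 223 and 186 CPM in the *Ash1L* shRNA samples. The groups did not overlap, and the gap between them was wider than the spread within either. The mean was 332 ± 11.6 CPM (SD, n = 2) in control and 205 ± 26.6 CPM (SD, n = 2) after *Ash1L* shRNA, 1.62-fold lower. The log2 fold change was -0.70 (SE 0.13, adjusted p = 0.241 by edgeR's quasi-likelihood test). As a share of the library, *Miat* took 0.0337% and 0.0318% in control and 0.0223% and 0.0192% after *Ash1L* shRNA.

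*Miat* was DOWN under every one of the 14 other settings, with a log2 fold change between -0.70 and -0.66 where all samples were kept. Without *Ash1L* shRNA 2 it was -0.57, and without *Ash1L* shRNA 1 it was -0.84. The adjusted p did depend on the method. It came to 0.00275 by DESeq2 and to 0.00792 by the likelihood ratio test of edgeR, and ran from 0.00275 to 0.870 over all settings. It was 0.00596 without *Ash1L* shRNA 1 in edgeR's quasi-likelihood test. The ratio of *Miat* to *Malat1* within a sample, which no scaling can move, was also lower after *Ash1L* shRNA, at -5.13 and -5.30 on the log2 scale in control and -5.62 and -6.14 after *Ash1L* shRNA.

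*Miat* fell alongside cell class markers, and it was compared with them. Over all genes tested, 8.28% were DOWN and 8.61% were UP. Of 12 astrocyte markers 8 were DOWN (*Aldh1l1*, *Slc1a2*, *Slc1a3*, *Gja1*, *Aldoc*, *Slc6a11*, *Fgfr3* and *Ntsr2*), with a median log2 fold change of -0.75, while *Gfap* (0.00) and *Aqp4* (0.11) were not called. Of 8 excitatory neuron markers 4 were DOWN (*Neurod2*, *Neurod6*, *Camk2a* and *Tbr1*, median -0.40). Of 10 interneuron markers 4 were DOWN (*Pvalb*, *Sst*, *Lhx6* and *Adarb2*, median -0.37), while *Gad2* (0.28), *Npy* (0.15) and *Slc32a1* (0.11) were above 0 and not called. Of 12 pan-neuronal markers 1, *Syt1*, was DOWN (median -0.21), near the share over all genes. Above 0 were 4 of these 12, *Nefl* (0.24), *Stmn2* (0.21), *Nefm* (0.20) and *Map2* (0.03). Of 11 oligodendrocyte markers 1 was DOWN (*Opalin*) and 1 UP (*Sox10*). Of 10 endothelial markers 1 was UP (*Kdr*), and of 11 microglia markers 0 were called. The summed markers of oligodendrocytes (2665, 3015, 2879 and 2538 CPM) and endothelial cells (406, 370.3, 424 and 360 CPM) stood with 1 *Ash1L* shRNA sample above or between the controls and the other below them. Set against the summed pan-neuronal markers of its own sample, *Miat* stood 0.41 and 0.47 below the control mean on the log2 scale in the *Ash1L* shRNA samples, with the controls 0.06 above and below it. Against the summed excitatory markers it stood 0.32 and 0.34 below, with the controls 0.16 above and below. On the same scale *Miat* stood at -0.45 and -0.66 against the summed interneuron markers and at -0.59 and -0.68 against those of oligodendrocytes. It stood at -0.70 and -0.73 against those of endothelial cells, and in all of these comparisons it was below both controls. Against the summed astrocyte markers the groups overlapped, since *Miat* came to 5.94% and 5.37% of that sum in control and 4.87% and 5.48% after *Ash1L* shRNA. Against the summed microglia markers they overlapped as well (33.8%, 31.2%, 16.0% and 34.5%). The part of cell makeup in the *Miat* result was not tested.

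The genes with the pattern most like that of *Miat* over the 4 samples, among 5540 genes with a mean of at least 1000 counts, were *Hrh3*, *Prdx6* and *Glud1*. Their centred log2 levels differed from those of *Miat* by a root mean square of 0.04, 0.05 and 0.05. *Hrh3*, a histamine receptor, stood at 51.9, 50.6, 33.3 and 29.7 CPM. *Prdx6*, a peroxiredoxin, stood at 224, 200.3, 148 and 115 CPM, and *Glud1*, glutamate dehydrogenase, at 249, 236, 175 and 133 CPM. The neighbours of *Miat* were not called. On one side the nearest genes tested were the crystallin genes *Cryba4* (-0.39) and *Crybb1* (-0.21) and the sulfotransferase gene *Tpst2* (-0.05), and on the other *E130006D01Rik* (0.47), *C130026L21Rik* (0.40) and *Mn1* (-0.24), all on the log2 scale.

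**Figure D2:**
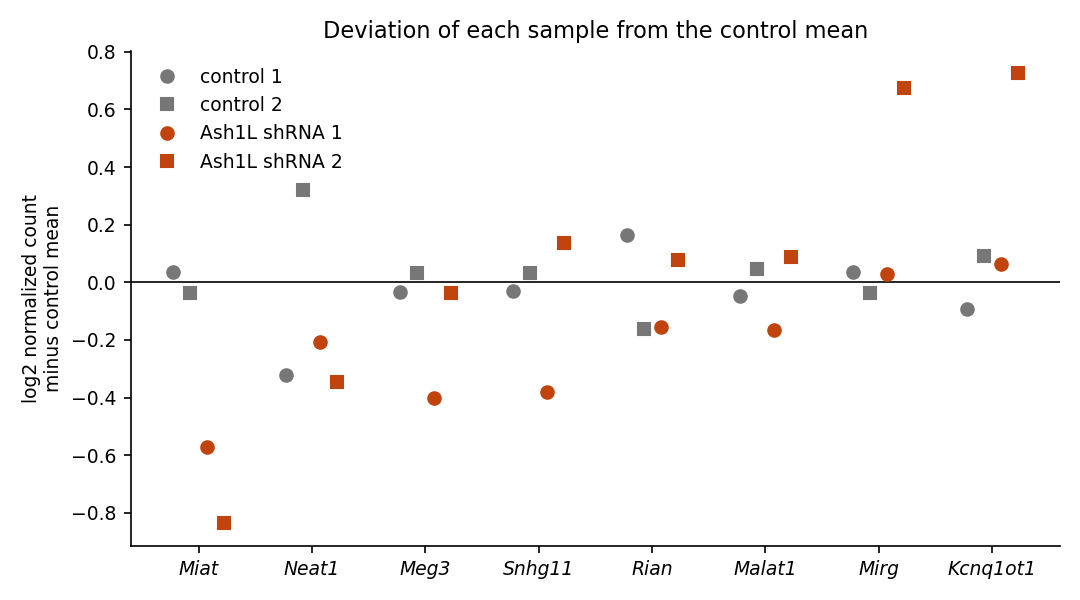
Log2 normalized count of each RNA in each sample minus the mean of the control samples, ordered by fold change. Grey symbols are control and orange symbols *Ash1L* shRNA samples. *Miat* lies at -0.57 and -0.84 in the *Ash1L* shRNA samples, whereas *Mirg* and *Kcnq1ot1* are raised in *Ash1L* shRNA 2 only (0.67 and 0.73) and stand at 0.03 and 0.06 in *Ash1L* shRNA 1.

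*Malat1* (ENSMUSG00000092341, chr19:5795690-5802672, minus strand) was the most counted gene in every library, with 168288, 446238, 301040 and 271011 counts. Its level was 11922 and 12721 CPM in control and 10991 and 13076 CPM after *Ash1L* shRNA. The *Ash1L* shRNA samples were the lowest and the highest, on either side of the controls. *Malat1* took 1.18% and 1.25% of the control libraries and 1.10% and 1.35% of the *Ash1L* shRNA libraries. Its log2 fold change was -0.03 (SE 0.14, adjusted p = 0.923 by edgeR's quasi-likelihood test), and its sign turned in 3 of the 14 other settings, with values from -0.16 to 0.08. The genes most like *Malat1* were *Wdr18*, *Sulf2* and *Dip2a*, each within a root mean square of 0.02 of it on the centred log2 scale and with log2 fold changes of -0.01, -0.03 and -0.05. Of 19 genes for nuclear speckle proteins, such as the serine and arginine rich splicing factors, 0 were DOWN and 0 were UP, with a median log2 fold change of -0.01.

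*Neat1* (ENSMUSG00000092274, chr19:5824708-5845478, minus strand) lies 22.0 kb from *Malat1* and was counted far less, with 488, 1895, 1025 and 705 counts. Its level was 34.6 and 54.0 CPM in control and 37.4 and 34.0 CPM after *Ash1L* shRNA. Control 2 stood alone and the other 3 samples were close to each other, so the groups overlapped and the controls differed 1.56-fold between themselves. The log2 fold change of -0.32 (SE 0.22, adjusted p = 0.482 by edgeR's quasi-likelihood test) rested on control 2. Without control 2 it was 0.04, and without control 1 it was -0.59 (adjusted p = 0.535). *Malat1* counts exceeded *Neat1* counts 345-, 235-, 294- and 384-fold. Of 17 genes for paraspeckle proteins 0 were called in either direction (median log2 fold change -0.02), and among them *Sfpq* (-0.05) and *Nono* (-0.11), which encode core paraspeckle proteins, overlapped between the groups. Both *Ash1L* shRNA samples lay below both controls for 4 of the 17 (*Pspc1*, *Dazap1*, *Ewsr1* and *Hnrnph1*), against 26.8% of all genes. They lay above for 1 (*Taf15*), against 26.5%. Among genes next to *Malat1* and *Neat1*, *Fam89b* was UP (log2 fold change 0.47, adjusted p = 0.263 in the same test). It was the only one called among 42 neighbours of the 8 RNAs, where 8.61% of all genes tested were UP and 8.28% DOWN. The neighbours of *Meg3*, *Rian* and *Mirg* were mostly small RNA entries inside or beside these genes, at no more than 4.02 CPM, where a call is hard to reach.

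In the *Dlk1-Dio3* region of chromosome 12, *Meg3*, *Rian* and *Mirg* follow each other on the plus strand and did not move together. *Meg3* (ENSMUSG00000021268, chr12:109541001-109571726), known as a growth-restraining RNA, had 20602, 53630, 30965 and 30158 counts. Its level was 1459 and 1529 CPM in control and 1131 and 1455 CPM after *Ash1L* shRNA. *Ash1L* shRNA 1 was low and *Ash1L* shRNA 2 was next to control 1, so the groups were separate by a hair on this scale and overlapped as shares of the library (0.145% and 0.15% against 0.113% and 0.15%). Its log2 fold change was -0.21 (SE 0.15, adjusted p = 0.505 by edgeR's quasi-likelihood test). It was -0.04 without *Ash1L* shRNA 1 and -0.40 without *Ash1L* shRNA 2 (adjusted p = 0.349), which makes *Meg3* DOWN in that setting, as it does 5.05% of all genes.

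*Rian* (ENSMUSG00000097451, chr12:109603940-109661716), host of small nucleolar RNAs, had 13006, 25757, 20229 and 17968 counts. Its level was 921 and 734 CPM in control and 739 and 867 CPM after *Ash1L* shRNA. Both *Ash1L* shRNA samples fell between the controls, and the log2 fold change was -0.04 (SE 0.16, adjusted p = 0.906 by edgeR's quasi-likelihood test).

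*Mirg* (ENSMUSG00000097391, chr12:109729764-109749460), host of a microRNA cluster, was the least counted of the 8 in each library, with 270, 637, 521 and 616 counts. Its level was 19.1 and 18.2 CPM in control and 19.02 and 29.7 CPM after *Ash1L* shRNA. Only *Ash1L* shRNA 2 was raised, and *Ash1L* shRNA 1 lay between the controls. The log2 fold change was 0.39 (SE 0.23, adjusted p = 0.413 by edgeR's quasi-likelihood test). It was 0.67 without *Ash1L* shRNA 1 (adjusted p = 0.0264, which would make *Mirg* UP, as it does 14.4% of all genes in that setting) and 0.03 without *Ash1L* shRNA 2.

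Within a sample, *Mirg* was higher relative to *Meg3* after *Ash1L* shRNA than in control. The log2 ratio of their counts was -6.25 and -6.40 in control and -5.89 and -5.61 after *Ash1L* shRNA. *Meg3* was low in *Ash1L* shRNA 1 and *Mirg* was high in *Ash1L* shRNA 2, so a different RNA moved the ratio in each sample. The ratio of *Rian* to *Meg3* overlapped, at -0.66, -1.06, -0.61 and -0.75. The ratio of *Mirg* to *Rian* was -5.59 and -5.34 in control and -5.28 and -4.87 after *Ash1L* shRNA. With 2 samples a group, these ratios were not tested.

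MicroRNA hairpins of the region were counted as genes of their own. Between the start of *Meg3* and 250 kb past the end of *Mirg*, 56 hairpins were listed, 46 had counts and 38 were tested. Reads of a total RNA library on a hairpin come mostly from longer host transcripts, so these are not levels of mature microRNAs. The 10 hairpins at 0 in all samples all lie within an exon of another listed gene, namely *Mir1906-1* and *Mir770* in *Meg3*, *Mir410* in *Mirg*, and *Mir431*, *Mir433*, *Mir127*, *Mir434*, *Mir432*, *Mir3071* and *Mir136* over *Rtl1*, which is read from the other strand. For these a count of 0 does not show absence of the RNA. The most counted hairpins were *Mir134*, with 38, 119, 94 and 87 counts, and *Mir382*, with 34, 107, 101 and 90 counts, both inside *Mirg*. Their mature sequences from RefSeq (GRCm38.p6) are shown, with the seed (bases 2 to 8) in capitals, to show what *Mirg* carries:

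mmu-miR-134-5p: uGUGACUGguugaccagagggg
mmu-miR-134-3p: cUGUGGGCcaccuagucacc
mmu-miR-382-5p: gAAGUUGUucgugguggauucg
mmu-miR-382-3p: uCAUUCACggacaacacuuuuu

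These 4 share no seed with each other. Over the region, 104 mature microRNA entries had 96 distinct seeds, and each of 8 seeds was shared by 2 entries. The entries that shared GCCCCUG were both miR-3070-5p, listed for *Mir3070a* and for *Mir3070b*. A pair with different names was miR-379-5p and miR-1193-5p, which are grouped by the seed GGUAGAC.

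Of the 38 hairpins tested, 0 were DOWN, against 8.28% of all genes, and 0 were UP, against 8.61%, with a median log2 fold change of 0.12. Each had few counts, at most 338 over the 4 samples (*Mir134*), and *Mir154* at -0.87 (SE 0.58) was not called. The absence of calls is thus weak evidence of no change. The summed level over all 56 hairpins was 37.3, 46.3, 39.5 and 57.6 CPM. *Ash1L* shRNA 2 was the highest and *Ash1L* shRNA 1 fell between the controls, as for *Mirg*. The 13 hairpins inside *Mirg* gave 16.2 and 16.4 CPM in control and 16.0 and 21.6 CPM after *Ash1L* shRNA, so *Ash1L* shRNA 2 alone was raised there too. The 38 hairpins outside the 3 host genes gave 17.3, 24.8, 20.0 and 30.4 CPM, where the controls differed from each other as well. The protein-coding genes of the region, read from the paternal copy, were not called. *Rtl1*, a gene derived from a retrotransposon, stood at 21.6, 24.3, 20.3 and 23.8 CPM (log2 fold change -0.06), and *Begain*, a gene for a synaptic protein, at 64.7, 56.1, 65.3 and 59.0 CPM (0.04). Reads of the 2 strands may not have been kept apart in counting, so the *Rtl1* value may include reads of the maternal strand. *Dlk1* and *Dio3* were near the detection limit, at no more than 1.70 CPM in any sample.

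**Figure D3:**
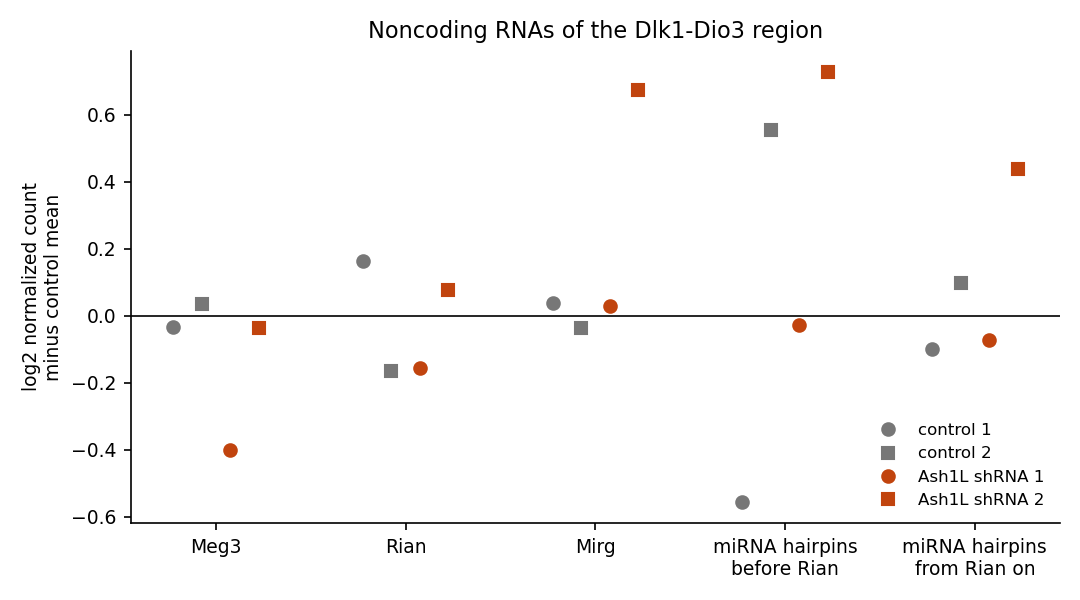
Log2 normalized count minus the control mean for *Meg3*, *Rian*, *Mirg* and the summed microRNA hairpins before *Rian* and from *Rian* on, in each sample (grey control, orange *Ash1L* shRNA). *Ash1L* shRNA 2 is the highest sample for *Mirg* and for both hairpin sums, and *Ash1L* shRNA 1 is the lowest for *Meg3* (-0.40).

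*Kcnq1ot1* (ENSMUSG00000101609, chr7:143203458-143296549, minus strand), read against the sense of *Kcnq1*, had 4198, 11851, 9076 and 10865 counts. Its level was 297 and 338 CPM in control and 331 and 524 CPM after *Ash1L* shRNA. *Ash1L* shRNA 1 lay between the controls and *Ash1L* shRNA 2 stood above all. The log2 fold change was 0.43 (SE 0.22, adjusted p = 0.365 by edgeR's quasi-likelihood test). It was 0.72 without *Ash1L* shRNA 1 and 0.06 without *Ash1L* shRNA 2.

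Of 11 protein-coding genes of the *Kcnq1* region 8 were tested and 0 were called (median log2 fold change -0.02). *Cdkn1c*, a cell cycle inhibitor silenced in cis by *Kcnq1ot1*, stood at 4.82, 6.30, 4.31 and 3.14 CPM (log2 fold change -0.58, adjusted p = 0.358 in the same test). *Kcnq1*, a potassium channel gene, stood at 1.204, 1.68, 2.04 and 3.04 CPM (log2 fold change 0.78, adjusted p = 0.359). The exons of *Kcnq1* and *Kcnq1ot1* overlap by 121 bases, and reads of the 2 strands may not have been kept apart in counting. *Nap1l4* stood at 139, 121, 156 and 144 CPM (log2 fold change 0.21), higher in both *Ash1L* shRNA samples, while *Cd81* (-0.02) and *Tssc4* (-0.03) were close to 0.

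*Snhg11* (ENSMUSG00000044349, chr2:158375638-158386145, plus strand), host of small nucleolar RNAs and abundant in neurons, had 10479, 27215, 15959 and 17270 counts. Its level was 742 and 776 CPM in control and 583 and 833 CPM after *Ash1L* shRNA. The *Ash1L* shRNA samples again lay on either side of the controls. Its log2 fold change was -0.10 (SE 0.18, adjusted p = 0.802 by edgeR's quasi-likelihood test), and it was 0.13 without *Ash1L* shRNA 1 and -0.38 without *Ash1L* shRNA 2. GENCODE lists the gene as protein coding and RefSeq as a long noncoding RNA.

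The 2 *Ash1L* shRNA samples thus differed from each other in most of the 8 RNAs. *Ash1L* shRNA 2 was above *Ash1L* shRNA 1 for *Malat1*, *Meg3*, *Rian*, *Mirg*, *Snhg11* and *Kcnq1ot1*, and below it for *Miat* and *Neat1*. The largest differences within the group were 1.58-fold for *Kcnq1ot1* and 1.56-fold for *Mirg*. Cell markers moved with these samples too, since *Ash1L* shRNA 2 held 539 CPM of 11 microglia markers against 1398 CPM in *Ash1L* shRNA 1 and 1007 and 1038 CPM in control. It also held 1093 CPM of 12 p53 target genes against 597 CPM, and 608 and 473 CPM in control. That sum leans on *Btg2*, at 34.8, 31.9, 31.7 and 284 CPM, and *Zmat3* went the other way, at 89.7, 79.5, 68.8 and 58.4 CPM. The part of these markers and target genes in the differences was not tested.

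**Figure D4:**
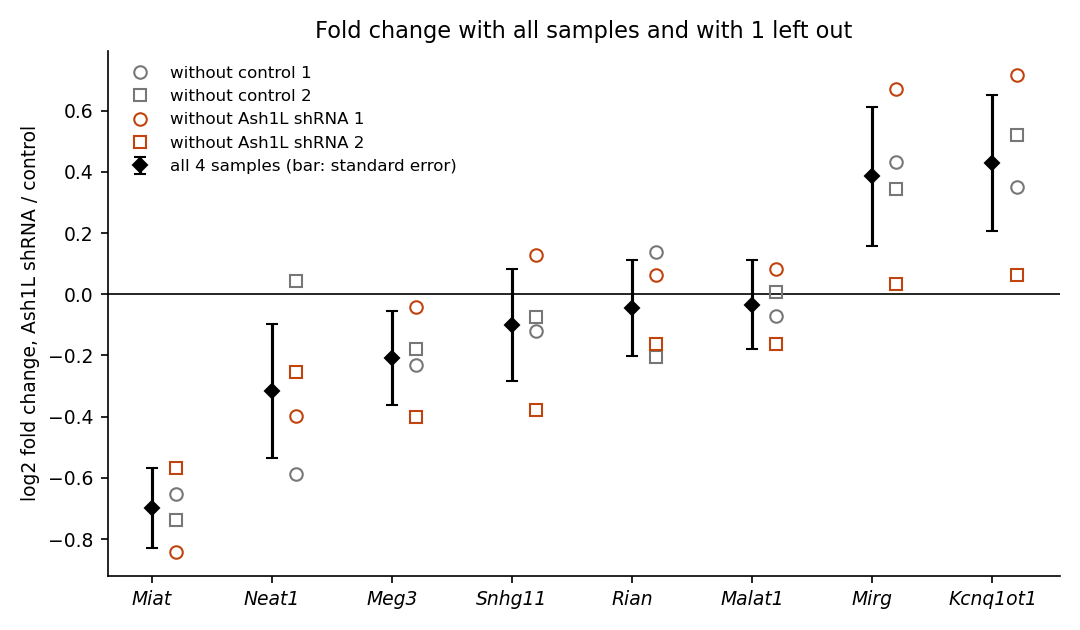
Log2 fold change (*Ash1L* shRNA over control) of each RNA with all 4 samples (black, bar 1 standard error) and with 1 sample left out (open symbols). *Miat* stays between -0.84 and -0.57, whereas *Mirg* and *Kcnq1ot1* come to 0.03 and 0.06 without *Ash1L* shRNA 2, and *Neat1* to 0.04 without control 2.

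Other noncoding and imprinted genes were taken as a frame for the 8. Of 21 other long noncoding RNAs tested, 1 was DOWN, *1700020I14Rik* (183, 159, 135 and 115 CPM, log2 fold change -0.45, adjusted p = 0.260 by edgeR's quasi-likelihood test), and 0 were UP, with a median of 0.04. *Tug1*, another nuclear RNA, stood at 113, 127, 106 and 88.8 CPM (log2 fold change -0.30, adjusted p = 0.322). Of 32 other imprinted genes tested, 6 were UP (*Mest*, *Peg10*, *Blcap*, *Inpp5f*, *Asb4* and *Airn*), against 8.61% of all genes. Of the same 32, 1 was DOWN (*Ppp1r9a*), against 8.28%, and the median was 0.18 against -0.003 over all genes. *Airn*, an imprinted noncoding RNA that silences neighbours in cis as *Kcnq1ot1* does, was low, at 0.567, 1.197, 2.34 and 2.46 CPM. *Peg10*, derived from a retrotransposon as *Rtl1* is, stood at 13.8, 9.49, 29.4 and 45.4 CPM (log2 fold change 1.70, adjusted p = 0.240). *Rtl1*, with the limit on strand given above, overlapped between the groups.

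**Figure D5:**
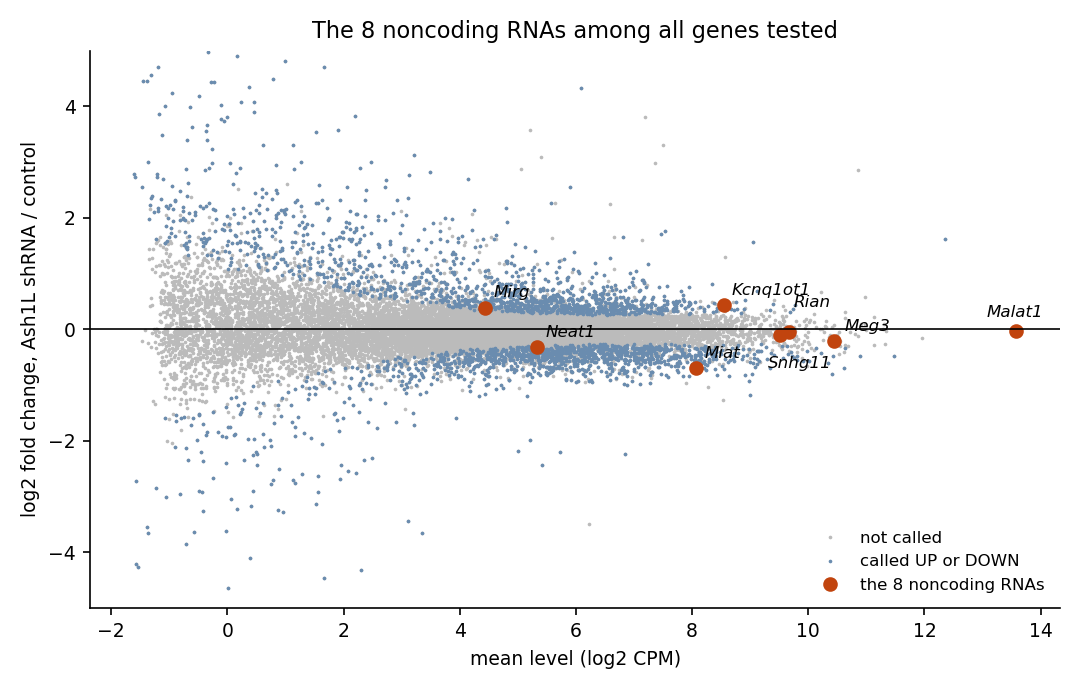
Log2 fold change (*Ash1L* shRNA over control) against mean level (log2 CPM) of the 16232 genes tested, with genes called UP or DOWN in blue, the others in grey and the 8 RNAs in orange. *Miat* lies below the grey band and the other 7 RNAs are not called, with *Malat1* at the far right. 8 genes beyond a log2 fold change of 5 are not drawn.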

How the data were processed

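Each of the 4 PFC samples has deposited raw read counts, 1 value for each gene symbol. The authors aligned reads with STAR to mm10 and counted them with featureCounts, whereas the labels' protocol names Cutadapt and TopHat2. The counting setting for strand is not given in the sources used here. Of 19 microRNA entries inside an exon of another gene on the opposite strand, 18 were at 0, against 39 of 62 inside an exon on the same strand and 176 of 538 in no such exon, so overlapping genes can have lost or shared reads. Samples were grouped by their labels. Genes were filtered with filterByExpr, scaled by TMM and tested with the quasi-likelihood F test in edgeR 4.0.16 (R 4.3.3), comparing *Ash1L* shRNA with control, and p-values were adjusted by Benjamini-Hochberg over 16232 genes. The same steps were tested on simulated data. Standard errors are the log2 fold change over the square root of F. DESeq2 1.42.0, other scalings, filters and fits, and leaving out each sample were alternatives. Intervals of shares are 95% Wilson intervals. Depth was 14251190 to 35764874 counts, which gives a relative counting error of 2.48% to 4.36% for the summed hairpins and less for *Malat1*. The 8 RNAs, the gene lists and the rule for named genes (the 8, their 3 nearest tested genes on each side, up to 4 genes of a list by mean count, the 3 most similar genes for *Malat1* and *Miat*, and members of counts of 5 or fewer) were chosen with earlier results of these data known. *Peg10*, *Airn*, *Tug1*, *Sfpq*, *Nono*, *Aqp4*, *Lars2*, *Btg2*, the DOWN astrocyte markers, the seed pairs, the UP imprinted genes and the hairpins shown were named after their values were seen. Symbols were matched to GENCODE and RefSeq (GRCm38), the latter for 92.1% of symbols.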

Additional observations from a re-analysis of the deposited data

How the results depend on the processing

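Of 112 log2 fold changes of the 8 RNAs recomputed under 14 settings, 100 kept their sign and their side of an unadjusted p of 0.05, 5 passed it anew, 7 changed sign and 0 lost it. The sign turned for *Malat1* with scaling by library size only (0.0090). It also turned for 4 RNAs when a sample was left out, with log2 fold changes from -0.162 to 0.081 for *Malat1* (positive without control replicate 2 or *Ash1L* shRNA replicate 1), -0.587 to 0.043 for *Neat1* (positive without control replicate 2), -0.204 to 0.139 for *Rian* (positive without control replicate 1 or *Ash1L* shRNA replicate 1) and -0.379 to 0.130 for *Snhg11* (positive without *Ash1L* shRNA replicate 1). The number of the 8 RNAs that were DOWN, 1 with all samples, ran from 1 to 3 when samples were left out, reaching 2 without control replicate 1 (*Miat* and *Neat1*, where 4.14% of all genes were DOWN) and 3 without *Ash1L* shRNA replicate 2 (*Miat*, *Meg3* and *Snhg11*, where 5.05% were). The number UP, 0 with all samples, ran from 0 to 2, the latter without *Ash1L* shRNA replicate 1 (*Mirg* and *Kcnq1ot1*), where 14.4% of all genes were UP and 16.5% DOWN. The number past an adjusted p of 0.05, also 0, was 1 (*Miat*) with DESeq2, where 2.08% of all genes passed. It was 1 (*Miat*) with the likelihood ratio test as well, where 2.95% passed. Where 1 sample of a group was left, it was assumed to vary like the others. The cause of these shifts was not tested.

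The share of the library taken by the 8 RNAs differed by -0.011 percentage points between the group means, by 0.0033 with *Rn45s*, *Lars2*, *Rmrp* and *Rpph1* left out of the total, and by -0.187 to 0.165 when samples were left out. Over all genes, the adjusted p was under 0.05 for 1 gene (2746 at an unadjusted p under 0.05), 420 with DESeq2, 479 with the likelihood ratio test, 34 without the filter, 0 with the replicate block, and 0 to 2502 when samples were left out. Scaling by library size only changed the 1344 DOWN and 1397 UP genes to 1144 and 1635 and moved the median log2 fold change from -0.003 to 0.04, with *Miat* at -0.66.

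Samples that share a replicate number did not move together (correlation of deviations -0.11), and nothing in the labels ties the numbers to a shared batch. With the replicate block *Miat* was -0.70 (adjusted p = 0.390 by edgeR's quasi-likelihood test), and the block called 1020 genes DOWN and 1052 UP. With the numbers crossed, a fit added after seeing the data, 1736 genes were DOWN, 1541 UP and 16 past an adjusted p of 0.05. Scaling without *Rn45s*, *Lars2*, *Rmrp* and *Rpph1*, also added after seeing the data, left *Miat* at -0.69. With 2 samples a group, an exact permutation test of a single value cannot pass 0.05. *Mirg*, with 270 to 637 counts, is the RNA whose value depth limits most.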
